A study of Mus musculus with 6 samples.

Results

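Serine is built from the glycolytic intermediate 3-phosphoglycerate by Phgdh, Psat1 and Psph. Shmt1 and Shmt2 then pass a carbon of serine to tetrahydrofolate, and Mthfd1, Mthfd2, Mthfd1l and Aldh1l2 carry that carbon through the folate pathway in the cytosol or the mitochondria. Asns makes asparagine from aspartate and glutamine. These 10 enzymes of serine, folate and asparagine synthesis were followed in αTC1 cells, a mouse glucagonoma line of pancreatic α cell origin. They were chosen by gene symbol as enzymes of one-carbon and amino acid synthesis, several of which are known targets of the transcription factor ATF4, and each symbol matched 1 of the 55487 genes in the deposited tables. All 10 were among the 15082 genes with enough counts to be tested.

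The study used RNA sequencing to test cellular effects of inhibiting SMNDC1, a Tudor domain protein that acts in splicing. It analyzed alternative splicing and reported more retained introns and skipped exons with the inhibitor. RNA of αTC1 cells was sequenced in 3 libraries after treatment with G786-1089, which the labels describe as the SMNDC1 inhibitor, and in 3 libraries after treatment with DMSO, its solvent. G786-1089 is taken here to be the inhibitor that the study calls compound 1. The column names of all libraries begin with WT, read here as wild type. For these libraries the labels name no engineered allele and no further agent, and they give no dose or duration.

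Carbon from serine enters the folate pathway in both compartments. In the mitochondria it is oxidized and released as formate, which the cytosol uses for purine, thymidylate and methionine synthesis. Shortage of amino acids and stress of the endoplasmic reticulum both slow translation through phosphorylation of eIF2α, while the mRNA of Atf4 is translated better, and ATF4 raises transcription of serine, folate and asparagine synthesis genes together with stress genes such as Ddit3 and Trib3.

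The libraries are called A, B and C, after the letters of their columns. Totals ranged from 70150880 to 94747943 counts with G786-1089 and from 59070705 to 69480568 with DMSO, so that every G786-1089 library was deeper, and the same 3 enzymes passed the test when all libraries were thinned to the lowest total. The α cell transcript Gcg, which encodes glucagon, was abundant in both groups but lower with G786-1089, at 2829 to 3599 CPM (counts scaled to library size with TMM factors) against 20226 to 22864. The summed level of 7 α cell markers was 4266 to 4961 CPM with G786-1089 and 22598 to 25207 with DMSO, 3 of the 5 that could be tested fell, and Gc, also a marker of α cells, was at 0 in all libraries. The summed β cell markers, mostly Nkx6-1, were at 4.72 to 11.4 CPM with G786-1089 and 10.3 to 15.4 with DMSO, with Ins1 and Pdx1 at 0 in all libraries, and the 3 markers of δ and PP cells were at 0 throughout. The summed exocrine markers, almost all from Cela1, reached 27.2 to 44.3 CPM with G786-1089 and 9.002 to 22.2 with DMSO, and the leukocyte markers 8.04 to 19.4 and 5.85 to 8.54 CPM. The fibroblast markers summed to 0 to 0.254 CPM with G786-1089 and 1.63 to 4.91 with DMSO, and one of them, Col1a2, was lower at an edgeR adjusted p of 0.0307, with 5, 1 and 0 counts against 99, 319 and 64. The part of these transcripts in the results on the enzymes was not tested. In bulk RNA, fewer cells with a transcript and less of it per cell cannot be told apart.

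With G786-1089 the enzymes did not all move in one direction. Psat1 fell to 0.586 of its DMSO level, Mthfd2 rose 1.24-fold and Mthfd1l rose 1.74-fold, while the other 7 did not pass the test. In edgeR's quasi-likelihood test, with an adjusted p under 0.05 as the threshold, 2 of the 10 enzymes were thus higher and 1 was lower. Of all 15082 genes, 6.98% were higher, 7.8% were lower and 14.8% passed in either direction. The median log2 fold change of the 10 enzymes was 0.02, and that of all tested genes was 0.04. In 5 enzymes (Psat1, Psph, Mthfd2, Mthfd1l and Aldh1l2) no G786-1089 library overlapped a DMSO library, which was the case for 36.8% of all tested genes. The study filtered splicing events by its DESeq2 results (adjusted p up to 0.1, and a log2 fold change of 1 or more in size). With this filter applied to the edgeR results, 0 of the 10 passed, against 10.4% of all genes. The summed level of the enzymes was 3266 to 3404 CPM with G786-1089 and 3331 to 3455 with DMSO. The labels do not say that the libraries come from separate cultures. For its cell experiments the study describes division of a common batch of cells among treatments in each replicate. Samples of a replicate were handled together. The p-values treat the libraries as unpaired and measure the spread between them, which may be technical.

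**Figure D1:**
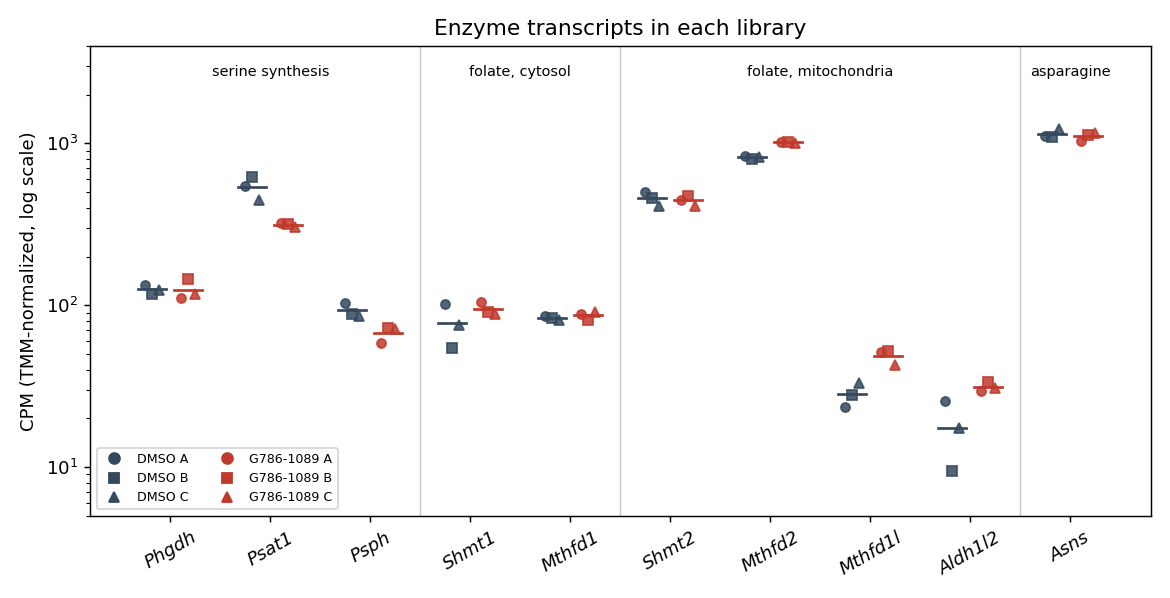
TMM-normalized CPM of the 10 enzymes (log axis) in each of the 3 DMSO libraries (dark) and 3 G786-1089 libraries (red), with marker shape for the column letter and a line for the group mean. The groups are separate for Psat1, Psph, Mthfd2, Mthfd1l and Aldh1l2, and they overlap for the other 5 enzymes.

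The serine branch begins with Phgdh, the dehydrogenase that draws 3-phosphoglycerate from glycolysis (ENSMUSG00000053398, GRCm38 chr3:98313170-98339990, minus strand, 12 exons in its longest coding transcript). Its level was 110.3, 145.6 and 116.5 CPM in G786-1089 libraries A, B and C, and 133.3, 117.7 and 124.8 CPM in DMSO libraries A, B and C. The highest and the lowest of the 6 values both came from G786-1089 libraries, and the groups overlapped. Means were 124.1 ± 18.9 and 125.3 ± 7.80 CPM (SD, n = 3 each), the log2 fold change was -0.01 ± 0.13 (SE), and the adjusted p was 0.964 in edgeR. The 95% interval of the fold ran from 0.794 to 1.24. Phgdh is the only enzyme of the 10 with near-identical copies elsewhere in the annotation, 14 in all and 12 of them processed pseudogenes. Counts on these copies came to 16.1% to 20.7% of those on Phgdh, and the log2 fold change was -0.03 (edgeR adjusted p = 0.903) when they were added to it.

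Psat1 follows Phgdh and transfers the amino group of glutamate, forming phosphoserine and α-ketoglutarate (ENSMUSG00000024640, chr19:15904678-15947337, minus strand, 9 exons). G786-1089 libraries A, B and C held 321.4, 317.2 and 305.6 CPM of Psat1, and DMSO libraries A, B and C held 544.1, 618.4 and 448.2 CPM. Every G786-1089 library was below every DMSO library, and the DMSO libraries were spread more widely. Means were 314.7 ± 8.18 and 536.9 ± 85.3 CPM (SD, n = 3 each). Psat1 fell by 0.77 ± 0.12 (SE) on the log2 scale, to a fold of 0.586 with a 95% interval of 0.481 to 0.715, at an adjusted p of 0.00825 in edgeR. It was the only enzyme to pass the test in all 18 alternative analyses, with log2 fold changes from -0.89 to -0.57.

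Psph removes the phosphate and releases serine (ENSMUSG00000029446, chr5:129765558-129787449, minus strand, 8 exons). Levels of Psph were 58.8, 72.3 and 71.8 CPM in G786-1089 libraries A, B and C, against 103.7, 88.8 and 86.1 CPM in DMSO libraries A, B and C. The groups did not overlap, with library A the lowest of the first group and the highest of the second. Means were 67.6 ± 7.66 and 92.9 ± 9.48 CPM (SD, n = 3 each). The log2 fold change of -0.46 ± 0.14 (SE) had a fold interval of 0.578 to 0.918, yet the adjusted p of 0.0792 missed the threshold in edgeR. DESeq2 gave an adjusted p of 0.0134, and limma-trend on log2 FPKM with a minimum FPKM gave 0.0452 and 0.0485 with its different pseudocounts. Exons of Cct6a on the opposite strand cover 10.4% of the exon bases of Psph. The study counted irrespective of strand and in Union mode, and what this did with reads in the overlap was not tested.

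The steps of this branch were then compared with each other within each library. The count ratio of Psat1 to Phgdh was 2.91, 2.18 and 2.62 with G786-1089 and 4.08, 5.25 and 3.59 with DMSO. The ratio of Psph to Phgdh was 0.533, 0.496 and 0.617 against 0.778, 0.754 and 0.690. In neither case did the groups overlap, and the differences in mean log2 ratio were -0.74 and -0.44, with exact p = 0.1 in two-sided permutation tests for each, the lowest p that 3 libraries against 3 allow. Psph against Psat1 gave a difference of 0.30 in log2 ratio with overlapping groups (exact permutation p = 0.3). Over the 8 ratios that were computed, the adjusted value of each p of 0.1 was 0.2, so none passed the threshold and none could have.

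On the folate side, the cytosolic hydroxymethyltransferase Shmt1 moves carbon between serine and glycine outside the mitochondria (ENSMUSG00000020534, chr11:60788104-60811718, minus strand, 12 exons). It stood at 104.9, 90.3 and 87.8 CPM in G786-1089 libraries A, B and C and at 102.0, 54.6 and 75.8 CPM in DMSO libraries A, B and C. DMSO library A lay among the G786-1089 libraries, while the other two DMSO libraries were lower than all of these. Shmt1 had a log2 fold change of 0.28 ± 0.23 (SE) and an edgeR adjusted p of 0.489. Its exon bases overlapped Smcr8 over 4.74% of their length.

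Mthfd1 is the cytosolic enzyme that interconverts the one-carbon forms of tetrahydrofolate and takes up formate (ENSMUSG00000021048, chr12:76255298-76319803, plus strand, 28 exons). Its libraries read 88.1, 80.7 and 91.4 CPM with G786-1089 and 85.8, 82.9 and 81.4 CPM with DMSO. These 6 values were close together and the groups overlapped. The log2 fold change was 0.06 ± 0.11 (SE), its fold interval was 0.871 to 1.24, and edgeR gave an adjusted p of 0.79.

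Shmt2, the mitochondrial counterpart of Shmt1 (ENSMUSG00000025403, chr10:127517123-127522444, minus strand, 12 exons), had 446.6, 473.8 and 413.1 CPM in G786-1089 libraries A, B and C. Its DMSO libraries A, B and C had 501.8, 458.3 and 413.2 CPM. The groups covered nearly the same range. A log2 fold change of -0.04 ± 0.10 (SE), an adjusted p of 0.826 in edgeR and a fold interval of 0.83 to 1.14 were obtained.

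Mthfd2 is the mitochondrial dehydrogenase and cyclohydrolase of methylene-tetrahydrofolate (ENSMUSG00000005667, chr6:83305691-83325908, minus strand, 8 exons). G786-1089 libraries A, B and C contained 1025, 1015 and 1004 CPM, whereas DMSO libraries A, B and C contained 832.8, 798.8 and 824.4 CPM. The gap between the groups was far wider than the spread within either. Means were 1015 ± 10.7 and 818.6 ± 17.7 CPM (SD, n = 3 each). Mthfd2 rose 1.24-fold, with a 95% interval of 1.14 to 1.35 and a log2 fold change of 0.31 ± 0.05 (SE, adjusted p = 0.00925 in edgeR). It passed the test in 17 of 18 alternatives, including each library left out, but not with the column letter as a replicate block, where the log2 fold change was also 0.31 and the edgeR adjusted p was 0.052.

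Mthfd1l ends the mitochondrial branch by releasing formate from formyl-tetrahydrofolate (ENSMUSG00000040675, chr10:3973118-4167081, plus strand, 28 exons). It measured 51.2, 52.2 and 43.0 CPM in G786-1089 libraries A, B and C, and 23.4, 27.8 and 33.1 CPM in DMSO libraries A, B and C. All G786-1089 libraries were above all DMSO libraries, and the nearest pair came from libraries C. Means were 48.8 ± 5.09 and 28.1 ± 4.87 CPM (SD, n = 3 each). Mthfd1l rose 1.74-fold, with a 95% interval of 1.27 to 2.37, a log2 fold change of 0.80 ± 0.19 (SE) and an edgeR adjusted p of 0.0349. This call ended whichever of the 6 libraries was left out, where log2 fold changes were 0.68 to 0.93 and edgeR gave adjusted p of 0.0524 to 0.103. It also ended with gene length offsets (0.62, adjusted p = 0.0733), with limma-trend without a filter (0.71, adjusted p = 0.0575) and with the replicate block (0.81, adjusted p = 0.0999). Over all genes, 2230 passed with 6 libraries and 1253 to 1556 with any 1 left out.

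Aldh1l2, the mitochondrial enzyme that oxidizes formyl-tetrahydrofolate to carbon dioxide with formation of NADPH (ENSMUSG00000020256, chr10:83487450-83534140, minus strand, 23 exons), was the least abundant of the 10. Its level was 29.4, 33.6 and 30.8 CPM in G786-1089 libraries A, B and C and 25.5, 9.41 and 17.5 CPM in DMSO libraries A, B and C. The DMSO libraries were lower than the G786-1089 libraries but differed widely among themselves. The log2 fold change of 0.84 was the largest of the enzymes, but its SE was 0.36, its fold interval ran from 0.991 to 3.23, and the edgeR adjusted p was 0.184. D10Wsu102e, on the opposite strand, covers 14.1% of the exon bases of Aldh1l2, and how reads in this overlap were counted was not tested.

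Pairs of enzymes that act on either side of the mitochondrial membrane were also compared within libraries. The count ratio of Mthfd2 to Mthfd1 was 11.6, 12.6 and 11.0 with G786-1089 and 9.71, 9.63 and 10.1 with DMSO, a 1.19-fold difference. That of Mthfd1l to Mthfd1 was 0.581, 0.648 and 0.470 against 0.272, 0.336 and 0.407, a 1.68-fold difference. Both ratios were higher in every G786-1089 library (exact permutation p = 0.1 for each, adjusted 0.2). The ratio of Shmt2 to Shmt1 leaned the other way, with a difference of -0.37 in log2 ratio, overlapping groups and exact permutation p = 0.2. Mthfd2l, the second mitochondrial dehydrogenase, had only 30 to 294 counts per library, and the ratio of Mthfd2 to it overlapped between the groups (exact permutation p = 0.4).

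**Figure D2:**
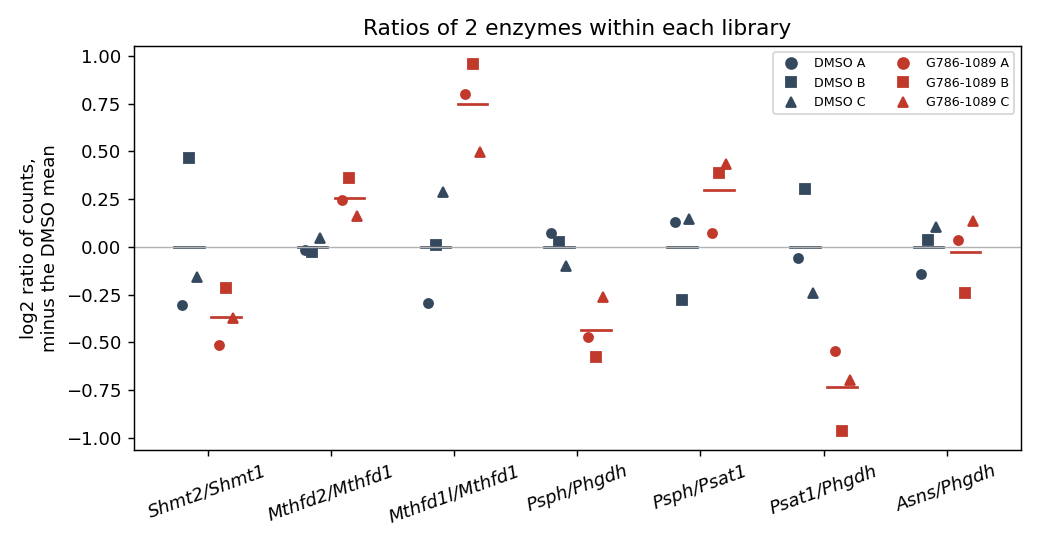
Log2 ratio of the counts of 2 enzymes within each library, minus the DMSO mean of that ratio, for 7 pairs. Points are libraries and lines are group means; the groups are separate for Mthfd2/Mthfd1, Mthfd1l/Mthfd1, Psph/Phgdh and Psat1/Phgdh, with exact p = 0.1 each.

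Asns, the asparagine synthetase (ENSMUSG00000029752, chr6:7675169-7693254, minus strand, 12 exons), is a textbook target of ATF4. Of the 9 enzymes with a promoter in the RefSeq table for GRCm38.p6, it alone held TGATGNAA, the composite site bound by ATF4 with a C/EBP partner. Each promoter covered 250 bases before and 50 bases after the annotated start, both strands were searched, and 3.97% of all 32851 promoters held that site. The E-box CACGTG, in 7.15% of all promoters, and the cAMP response element TGACGTCA, in 1.79%, were in none of the 9. A match or its absence describes these letters in this window and no binding. The 250 bases before the start of Asns (chr6:7693210-7693459, minus strand) are printed with the site in capitals, because they hold the only match among the enzymes:
Asns: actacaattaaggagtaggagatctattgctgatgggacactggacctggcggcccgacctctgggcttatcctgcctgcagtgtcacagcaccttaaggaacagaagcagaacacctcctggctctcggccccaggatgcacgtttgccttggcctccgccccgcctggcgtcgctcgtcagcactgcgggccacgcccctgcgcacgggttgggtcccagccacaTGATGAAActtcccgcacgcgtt

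The level of Asns was 1030, 1123 and 1167 CPM in G786-1089 libraries A, B and C and 1103, 1102 and 1226 CPM in DMSO libraries A, B and C. The groups overlapped over most of their range. Means were 1107 ± 69.7 and 1143 ± 71.3 CPM (SD, n = 3 each), the log2 fold change was -0.05 ± 0.07 (SE), and the edgeR adjusted p was 0.742. The 95% interval of the fold, 0.859 to 1.09, was among the narrowest of the enzymes. Against Phgdh, the first enzyme of the serine branch, the log2 count ratio of Asns differed by -0.03 between groups (exact permutation p = 0.8).

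Per length, in FPKM (fragments per kilobase, scaled between libraries, as deposited), the enzymes ranked in the same order in both groups. Asns led in the DMSO libraries with a mean of 486.2 FPKM, followed by Mthfd2 at 360.9, Shmt2 at 182.6 and Psat1 at 168.1 FPKM. Phgdh at 60.8, Psph at 49.3, Shmt1 at 24.9, Mthfd1 at 23.7, Mthfd1l at 6.05 and Aldh1l2 at 2.64 FPKM followed. The libraries of Shmt2 and Psat1 overlapped in this order, as did those of Shmt1 and Mthfd1, and all other neighbors were apart. With G786-1089 other neighbors met. Asns at 469.5 and Mthfd2 at 446.4 FPKM overlapped there, as did Psph at 35.8 and Shmt1 at 30.3 FPKM, while Shmt2 at 176.9 FPKM stood clear of Psat1 at 98.3 FPKM. Means with G786-1089 were 60.2 FPKM for Phgdh, 24.5 for Mthfd1, 10.5 for Mthfd1l and 4.71 for Aldh1l2.

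The makeup of the summed FPKM shifted between branches while the sum itself, at 1321 to 1397 FPKM with G786-1089 and 1347 to 1392 with DMSO, did not separate the groups. Serine synthesis made up 13.96%, 14.98% and 13.98% of it in G786-1089 libraries A, B and C and 20.8%, 22.1% and 18.2% in DMSO libraries A, B and C. The mitochondrial folate enzymes made up 48.6%, 47.0% and 45.6% against 41.4%, 40.2% and 39.8%. Mthfd2 supplied most of the latter, at 34.1%, 32.2% and 32.5% of the whole with G786-1089 and 26.4%, 26.1% and 26.9% with DMSO. In these shares the groups did not overlap, but a share can move through any of the 10 genes, and they rest on the same counts as the tests of Psat1 and Mthfd2. Shares of the cytosolic enzymes, 3.73% to 4.42% and 3.04% to 4.10%, and of Asns, 33.0% to 36.4% and 33.7% to 38.5%, overlapped between the groups.

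**Figure D3:**
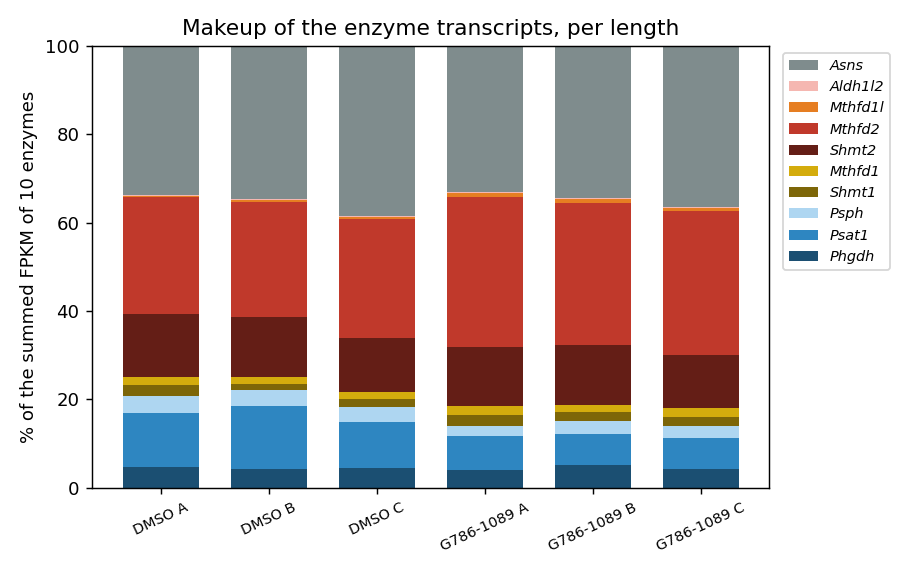
Share of each enzyme in the summed FPKM of the 10 (percent, stacked), for each library. The blue serine synthesis part takes 13.96% to 14.98% in the G786-1089 libraries and 18.2% to 22.1% in the DMSO libraries, and Mthfd2 takes 32.2% to 34.1% and 26.1% to 26.9%.

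Around the enzymes, 20 further genes of the folate cycle and glycine cleavage were examined, of which 18 could be tested. Of these 1 was higher and 1 lower with G786-1089, with a median log2 fold change of 0.17. The share called was thus 11.1%, below the 14.8% of all tested genes. Sfxn1, a mitochondrial serine transporter, fell by 0.68 ± 0.18 (SE) on the log2 scale, from 335.8, 308.3 and 332.8 CPM in the DMSO libraries to 262.6, 168.1 and 177.2 CPM (edgeR adjusted p = 0.0456). Amt, a subunit of the glycine cleavage system, rose by 3.95 ± 1.03 (SE) on the log2 scale at an edgeR adjusted p of 0.0483, from 4, 41 and 6 counts in DMSO libraries A, B and C to 248, 636 and 250 counts. With 1 library left out, log2 fold changes ran from -0.91 to -0.57 for Sfxn1 and from 3.48 to 5.54 for Amt. Most of these fits ended the calls. That of Sfxn1 ended without G786-1089 library B or C or any 1 DMSO library, at edgeR adjusted p of up to 0.134, and with the replicate block (0.0542). That of Amt ended without any 1 G786-1089 library or DMSO library A or C, at up to 0.135.

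Some partners of the enzymes were named whatever their values. Tyms, the thymidylate synthase, had 433.9, 443.4 and 461.3 CPM in G786-1089 libraries A, B and C and 393.1, 351.5 and 414.2 CPM in DMSO libraries A, B and C, with means of 446.2 ± 13.9 and 386.2 ± 31.9 CPM (SD, n = 3 each; log2 fold change 0.21, edgeR adjusted p = 0.152). Every G786-1089 library was above every DMSO library, but the gene did not pass the test. Aldh1l1, the cytosolic counterpart of Aldh1l2, had 29.2, 10.01 and 14.9 CPM against 5.19, 2.28 and 0 CPM (edgeR adjusted p = 0.246). Mthfd2l lay between 0.346 and 3.97 CPM in all libraries, with overlapping groups (edgeR adjusted p = 0.916).

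Pathways that supply or use serine and one-carbon units were counted in the same way, against the 14.8% of all tested genes called in either direction, and near-identical copies of their genes were not sought. The share called was 50% at the 3-phosphoglycerate branch point, 33.3% in the methionine cycle and transsulfuration, 15.4% in aspartate, glutamine, proline and alanine synthesis, 11.1% in serine use and 8.33% in purine synthesis, each over few genes. At the branch point of 3-phosphoglycerate in glycolysis, 2 of 6 genes rose and 1 fell. Eno1, the enolase, rose from 3201, 3123 and 2884 CPM in the DMSO libraries to 4964, 5073 and 4935 CPM (log2 fold change 0.70 ± 0.05, SE, edgeR adjusted p = 0.000412). Pkm, the pyruvate kinase, rose by 0.61 ± 0.08 (SE) on the log2 scale at an edgeR adjusted p of 0.00343. Both act past 3-phosphoglycerate, the substrate of Phgdh, and both passed in all 18 alternatives. Bpgm, which makes and removes 2,3-bisphosphoglycerate, fell by 1.16 ± 0.21 (SE) on the log2 scale (edgeR adjusted p = 0.0131). Its call ended without DMSO library A or C, at an adjusted p of up to 0.0533, and with the replicate block and length offsets (0.0578).

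Among 13 genes of aspartate, glutamine, proline and alanine synthesis, 2 rose and none fell. One of them, Got1, the cytosolic aspartate aminotransferase, rose from 344.8, 382.4 and 326.8 CPM to 534.0, 512.4 and 525.8 CPM (log2 fold change 0.58 ± 0.08, SE, edgeR adjusted p = 0.00516), and passed in all 18 alternatives. Of 12 purine synthesis genes, Gmps, the GMP synthetase, alone passed, with a rise of 0.61 ± 0.07 (SE) on the log2 scale and an edgeR adjusted p of 0.00274, while the median of the 12 was -0.30. With gene length offsets the rise of Gmps was 0.33 (adjusted p = 0.0237), and with the replicate block added it was 0.33 and not past the threshold (adjusted p = 0.087). In the methionine cycle and transsulfuration, 2 of 6 tested genes fell and none rose. Mat2a, which makes S-adenosylmethionine, fell by 0.39 ± 0.09 (SE) on the log2 scale (edgeR adjusted p = 0.0326), and Cbs, which joins serine to homocysteine, fell by 1.61 ± 0.42 (SE, edgeR adjusted p = 0.0479). Of 9 tested genes of serine use, only Ptdss1, a phosphatidylserine synthase, passed, and it fell by 0.64 ± 0.17 (SE) on the log2 scale (edgeR adjusted p = 0.0458). The calls of Cbs and Ptdss1 ended whichever library was left out, and that of Mat2a without any library but G786-1089 B, at edgeR adjusted p of up to 0.152, 0.133 and 0.102. With the replicate block the adjusted p were 0.14, 0.101 and 0.0893.

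Larger changes were measured among genes of the ATF4 pathway and stress response. Of 15 such genes, 7 rose and 1 fell, and their median log2 fold change was 1.38. The share called was 53.3%, against 14.8% of all tested genes. Atf4 itself read 562.1, 586.1 and 621.7 CPM in G786-1089 libraries A, B and C and 491.9, 444.0 and 349.3 CPM in DMSO libraries A, B and C. The groups did not overlap, but the log2 fold change of 0.46 ± 0.13 (SE) had an edgeR adjusted p of 0.0592. Counts of its mRNA do not measure ATF4 protein, which is mostly set by translation. Ddit3, which encodes the stress factor CHOP, rose from 22.5, 18.3 and 16.8 CPM to 262.9, 285.7 and 331.3 CPM, 15.3-fold (edgeR adjusted p = 0.000102). Trib3, a pseudokinase that binds ATF4, rose from 80.6, 55.3 and 71.96 CPM to 432.2, 537.0 and 496.3 CPM, 7.05-fold (edgeR adjusted p = 0.000246).

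Further members of this list rose with the same separation of the groups. Nupr1, a stress-induced nuclear protein, rose 7.75-fold, Ppp1r15a, which directs removal of phosphate from eIF2α, rose 4.49-fold, Cebpb, a C/EBP factor, rose 2.61-fold, and Sesn2, a sestrin that restrains mTORC1, rose 2.27-fold. These and Ddit3 and Trib3 passed in all 18 alternatives. Cebpg, another C/EBP factor, rose 3.94-fold (edgeR adjusted p = 0.023), but not without G786-1089 library B or C or any 1 DMSO library, where adjusted p reached 0.0869, nor with the replicate block (0.0509). Chac1, which degrades glutathione and is a known ATF4 target, fell by 0.79 ± 0.16 (SE) on the log2 scale, from 179.2, 131.6 and 123.8 CPM to 84.3, 78.8 and 88.9 CPM (edgeR adjusted p = 0.022). Its call ended without any 1 G786-1089 library or DMSO library B, at adjusted p of up to 0.0717, and with the replicate block (0.0567). Beside these values, the enzymes were mixed. The intervals of Mthfd2 (1.14 to 1.35) and Mthfd1l (1.27 to 2.37) lay above a fold of 1. Those of Psat1 (0.481 to 0.715) and Psph (0.578 to 0.918) lay below it. The intervals of Asns, Phgdh and Shmt2 all include a fold of 1 and end at 1.09, 1.24 and 1.14, and those of Shmt1, Mthfd1 and Aldh1l2 include it as well. The difference between the enzymes and the regulators was not tested, and the regulators come from the same 6 libraries.

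**Figure D4:**
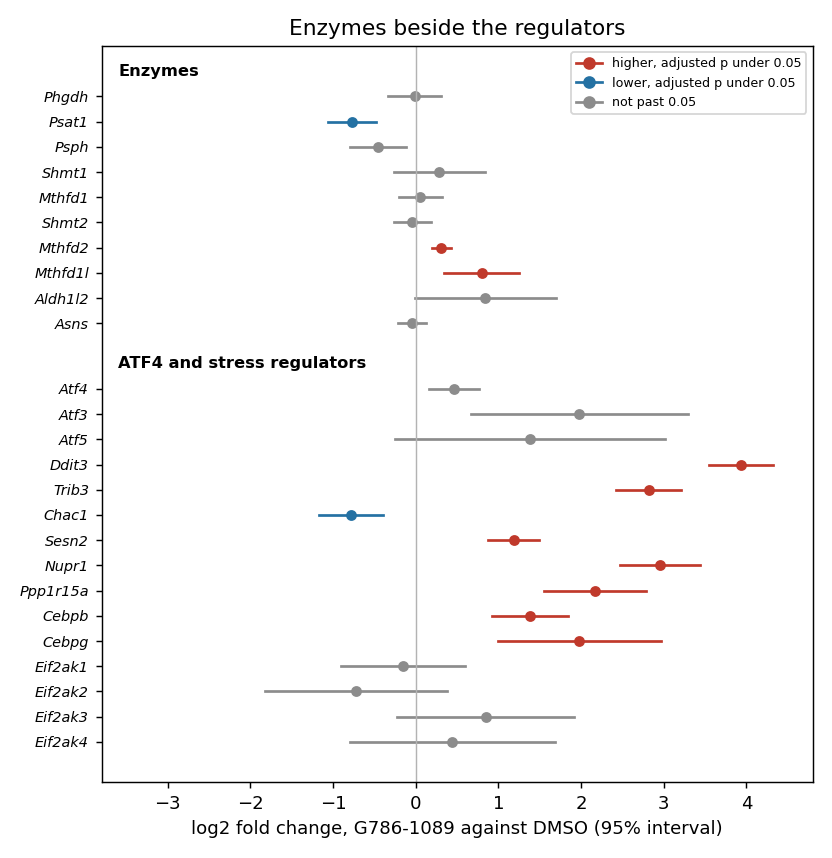
Log2 fold change with its 95% interval, G786-1089 against DMSO, for the 10 enzymes and the 15 genes of the ATF4 and stress list (edgeR). Red and blue mark genes higher or lower at an adjusted p under 0.05; the enzymes lie between -0.77 and 0.84, whereas Ddit3, Nupr1 and Trib3 lie between 2.82 and 3.94.

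The site TGATGNAA was in the promoters of 4 of these 15 genes. Windows of 30 bases around it are set beside that of Asns, with the matched letters in capitals, because genes with this site were higher, lower or not past the test in these libraries. Asns (chr6:7693214-7693243, minus strand) holds it 23 bases before its start, Nupr1 (chr7:126625562-126625591, minus strand) and Atf3 (chr1:191183425-191183454, minus strand) 110 bases before, and Chac1 (chr2:119351038-119351067, plus strand) 193 bases before. In Trib3 (chr2:152344028-152344057, minus strand) it begins 14 bases after the start. All but that of Asns read as the reverse complement.
Asns: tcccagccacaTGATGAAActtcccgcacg
Nupr1: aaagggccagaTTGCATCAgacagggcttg
Chac1: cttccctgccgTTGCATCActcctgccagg
Atf3: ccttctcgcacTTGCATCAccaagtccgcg
Trib3: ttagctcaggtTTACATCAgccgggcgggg

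Atf3, a stress-induced factor of the same family, had 31.0, 60.6 and 43.2 CPM in G786-1089 libraries A, B and C and 8.71, 4.86 and 20.6 CPM in DMSO libraries A, B and C, with an edgeR adjusted p of 0.0593. Of the genes in these lines, Nupr1 and Trib3 thus rose, Chac1 fell, and Asns and Atf3 did not pass the test. Ddit3, with the largest rise of this list, held none of the 3 motifs in its window. Psat1, the one enzyme that fell, held none either, in both of its annotated promoters.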

How the data were processed

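RNA of 3 G786-1089 and 3 DMSO libraries of αTC1 cells was prepared by Smart-seq2 and Nextera XT and sequenced from both ends. The authors aligned the reads to GRCm38 with STAR and counted them on the basic Ensembl annotation. They counted irrespective of strand, in the Union mode of summarizeOverlaps. Raw counts per gene were deposited (processing notes of the submitters: STAR 2.7.9a, Picard 2.19.2, DESeq2 1.34.0, R 4.1.3). The deposited FPKM values hold the same genes, and how the authors made them is not given in the sources used here. Smart-seq2 has no molecular identifiers, so counts include PCR copies.

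The counts were tested in edgeR 4.0.16 (R 4.3.3) after filterByExpr (minimum count 10, total 15) and TMM, by the quasi-likelihood test, and p-values of all 15082 genes were adjusted by Benjamini-Hochberg. SE was computed as |log2 fold change|/√F. CPM values use TMM-scaled library sizes, and ratios within libraries were compared by two-sided exact permutation tests (scipy 1.17.1). The members, the 7 further gene lists and the markers were chosen with earlier results of these data known. Named were all 10 enzymes, any gene of a list with an adjusted p under 0.05, and Mthfd2l, Aldh1l1, Tyms, Atf4 and Ddit3 (a few genes under this rule are not reported here); Atf3 was added after its values were seen, for its promoter. Ddit3 has a second identifier, which is at 0 in all libraries.

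Alternatives were DESeq2 1.42.0, RLE factors, library size only, other filters (at least 1 count in any library, at least 10 in every library), limma-trend (limma 3.58.1) on log2(FPKM + 1) or log2(FPKM + 0.1) with a mean FPKM of at least 1, or on log2(FPKM + 1) without a filter, gene length offsets, thinned counts, each library left out, and a replicate block by column letter. Adding the copies of Phgdh, found with blastn 2.17.0 (at least 100 bases at 95% identity), was chosen after seeing the data. Copies and exon overlaps were sought for the 10 enzymes only, in GENCODE vM21, which holds 55141 of the 55487 identifiers, 99.4% of them at the same coordinates. Tools were tested on simulated data. Depth was 59070705 to 94747943 counts per library, but with PCR copies among the counts the counting error was not measured. The precision given rests on the spread between 3 libraries. No column of per-sample values was left unused.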

Additional observations from a re-analysis of the deposited data

How the results depend on the processing

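In edgeR the number of enzymes past an adjusted p of 0.05, 3 in the analysis reported, was 2 with any 1 library left out, 1 with the replicate block and 0 with the study's filter. Nothing ties the letters of the columns to the numbered replicates in the labels, and same-letter libraries did not deviate together (correlations 0.015, 0.0027 and 0.025), so the analysis reported has no block. The study states for its cell experiments that samples of a replicate were handled together, so a pairing that the letters do not show remains possible. Over all genes, 1253 to 1556 passed with any 1 library left out, 1232 with the replicate block and 2230 without it. With it the log2 fold changes of Mthfd2 and Mthfd1l were 0.31 and 0.81 with adjusted p of 0.052 and 0.0999, and with gene length offsets added that of Mthfd1l was 0.63 (adjusted p = 0.16). Without the block, Mthfd1l was at 0.62 with length offsets, 0.71 by limma-trend on log2(FPKM + 1) without a filter, and 0.68 to 0.93 with a library left out, none past the threshold. Psph passed with DESeq2 (-0.46) and with limma-trend above the FPKM minimum at either pseudocount (-0.45 and -0.46). The cause of these differences was not tested.

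Enzymes with values near 0 changed sign without passing the test. Phgdh was at 0.19 by library size only, 0.0004 with at least 1 count in any library, 0.0001 with at least 10 in every library, 0.053 with gene length offsets, 0.047 with the replicate block and length offsets, and -0.14 to 0.067 with a library left out. By library size only, which moved the median of all genes by 0.20, Shmt2 was at 0.16 and Asns at 0.16; with a library left out they ranged from -0.12 to 0.03 and from -0.085 to 0.0035. Mthfd1 was at -0.0502 with length offsets and at -0.0532 with the block added. Mthfd2l, with few counts, ranged from -1.88 to 0.78 with a library left out, and was positive without G786-1089 library B (0.12), G786-1089 library C (0.24) or DMSO library B (0.78).

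In the other lists, the 2 calls in the folate cycle and glycine cleavage became 0 with at least 1 count in any library, 1 with at least 10 in every library, limma-trend without a filter, length offsets or either block fit, 3 with DESeq2, library size only or limma-trend on log2(FPKM + 1) with a minimum, and 0 to 1 with a library left out. The 2 in the methionine cycle became 3 with DESeq2, 1 by library size only, with the pseudocount of 0.1 or with the block and length offsets, 0 with at least 1 count in any library, limma-trend without a filter or the block, and 0 to 1 with a library left out. The 1 in purine synthesis became 3 with DESeq2, 2 by library size only and by limma-trend with a minimum, and 0 with the block and length offsets. The 2 in aspartate, glutamine, proline and alanine synthesis became 6 with DESeq2 or library size only, 1 with at least 1 count in any library, limma-trend without a filter or either block fit, and 1 to 2 with a library left out. The 1 in serine use became 3 with DESeq2, at least 10 counts in every library or limma-trend with a minimum, 2 with length offsets, 0 with at least 1 count in any library, limma-trend without a filter or either block fit, and 0 to 1 with a library left out. The 3 at the 3-phosphoglycerate branch point became 5 by library size only. They became 4 with DESeq2, at least 10 counts in every library, limma-trend with a minimum or length offsets. Without DMSO library A, or with the block and length offsets, they became 2. The 8 in the ATF4 and stress list were 10 with DESeq2, at least 10 counts in every library and limma-trend with a minimum, 6 with either block fit, and 6 to 8 with a library left out. Amt and Mthfd2l had few counts, and the counting error of these genes and of the enzymes was not measured.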
